A study of Mus musculus with 15 samples.

Results

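Cultured mouse cardiomyocytes stimulated with angiotensin II (AngII) were compared with and without low-dose cilengitide (ldCil). The comparison used 8 of the 15 RNA-Seq libraries of the series, 4 from cells given 1 µM AngII with vehicle (S5, S6, S7 and S8) and 4 from cells given 1 µM AngII and 20 nM cilengitide (AngII + ldCil; S13, S14, S15 and S16). Members were chosen by the treatment label alone, and 12848 of 14337 genes were kept, those whose log2 RPKM (a read count per length of transcript and size of library) averaged 0 or more over the 15 libraries. The cells of both groups came from whole hearts of wild-type C57/BL6 pups aged 1 to 3 days, were serum starved before treatment and received AngII on consecutive days. The other 7 libraries were 3 control libraries from saline-treated cells and 4 libraries from cells given ldCil without AngII, and they entered the fit to give 1 estimate of the spread per gene. No source used here says that the replicates were separate cultures, so p-values cover the variation among the libraries alone, which may be technical.

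AngII is a peptide hormone that acts on cardiomyocytes mainly through the AT1 receptor, a receptor coupled to Gq, phospholipase C and calcium signalling, and it drives hypertrophy with re-use of foetal genes. Cilengitide is a cyclic peptide that mimics the Arg-Gly-Asp (RGD) sequence of matrix proteins and occupies αvβ3 and αvβ5 integrins, which link the matrix to the cytoskeleton and to focal adhesion kinase, PI3K and AKT. At high doses it blocks these integrins. The question asked of the data was whether adding it at a low dose shifts the transcript levels of AngII-stimulated cells.

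Cardiomyocyte genes were abundant in both groups. The mean log2 RPKM of Actc1, the cardiac actin, was 11.64 with AngII and 11.86 with AngII + ldCil, and that of Myh6, the alpha myosin heavy chain, was 11.28 and 11.04. RNA of other heart cells was present as well, with Postn, a fibroblast gene, at 8.54 and 7.96 and the macrophage gene Ctss at 4.05 and 3.69. In bulk RNA, fewer cells of a type and less RNA per cell cannot be told apart. Over the genes tested, the SD of the log2 differences between 2 libraries was smallest for S13 and S14 (0.255) and for S6 and S7 (0.268), then for S7 and S15 (0.348) and S8 and S14 (0.362), which are pairs across the treatments. S5 was 0.781 to 0.929 from the other AngII libraries, and S16 was 0.613 to 0.668 from the other AngII + ldCil libraries. Without read counts, the depth is unknown and no sampling noise could be set beside the small distance between S13 and S14. On the first principal component (49.0% of the variance), S5 scored 47.9, against −41.7, −39.4 and −9.92 for S6, S7 and S8, and S15 scored −42.0, against 4.44, 5.12 and −24.7 for S13, S14 and S16. Results are also given without S5 and S15, which were picked after these scores were seen. Leaving them out draws the groups apart on this component by construction, so larger differences in that setting are no separate evidence.

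No gene passed an adjusted p of 0.05 between AngII + ldCil and AngII (0 of 12848, 0.0%; limma, Benjamini-Hochberg), and the smallest adjusted p was 0.9997. At an unadjusted p under 0.01 from limma there were 43 genes, 30 higher (0.233% of the genes tested) and 13 lower (0.101%) with ldCil added, and 36 of the 43 are annotated as protein coding. At an unadjusted p under 0.05 there were 331, of which 207 were higher (1.61%) and 124 lower (0.965%). All 4 AngII + ldCil libraries lay above all 4 AngII libraries for 124 genes (0.965%) and below them for 75 (0.584%). For a gene whose libraries are separated in this way the exact permutation p, 2-sided over 70 assignments, is 0.0286, the smallest that these libraries can give. With no difference in any gene, the expected share of genes at or below a p equals that p. The counts at 0.01, at 0.05 and of separated genes all fell short of this. Over all genes tested 52.4% were higher, the median log2 difference was 0.011, and the 95% intervals reached 0.43 to either side of the estimate at the median. A log2 difference over 1 in size was found for 49 genes, 9 of them at an unadjusted p under 0.05.

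These counts depended on single libraries. At an unadjusted p under 0.01, the 30 higher and 13 lower genes became 110 and 49 without S8, 50 and 50 without S15, 17 and 6 without S6 and 10 and 4 without S16, and the lower genes became 33 without S11, a library outside the comparison. Without S5 and S15 together there were 150 higher and 91 lower genes, and still none passed an adjusted p of 0.05 (smallest 0.51, limma). Weighting the libraries by their agreement with the model gave 4048 genes at an adjusted p under 0.05 (limma), with weights of 3.47 and 3.88 for S13 and S14 and 1.65 and 3.39 for S6 and S7, the closest pairs, and of 0.113 to 0.363 for S5, S8, S15 and S16. Several list members named at an unadjusted p between 0.01 and 0.05 lost it when 1 library was left out. These were Pgk1, Pfkl, Pgam1, Gsk3a, Gsk3b, Sos1, Itga5, Enah, Rasa2, Ier2, Trdn, Hsd17b7, Tead1, Crim1, Ptpn14, Notch2 and Kdr, each of them among others without S16, while Ldha and Pkm kept it. All 43 genes kept the sign of their difference in each alternative in which they were tested. None of the genes named from here on passed an adjusted p of 0.05 in the fit without weights, so the limma p-values given for them are unadjusted. Any count of list members at an unadjusted p under 0.05 is to be read beside 1.61% higher and 0.965% lower over all genes tested.

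Among the genes lower with ldCil added, Sprr1a had the largest difference of those at an unadjusted p under 0.01. Sprr1a encodes a small proline-rich protein of the skin's cornified envelope that cardiomyocytes also make under stress. Its log2 RPKM, in library order, was 8.52, 9.72, 9.26 and 9.37 with AngII and 7.35, 7.42, 8.69 and 6.34 with AngII + ldCil. S15 lay above the AngII library S5, so the groups overlapped by this one library. The log2 difference was −1.76 (standard error 0.52, 95% interval −2.88 to −0.65), a 3.4-fold lower level (p = 0.0043, limma, exact permutation p = 0.0571), and the control mean was 7.71. Baalc had the smallest p. Baalc, which encodes a membrane-associated protein known from brain and acute leukaemia, read 3.39, 3.52, 3.62 and 3.02 in the AngII libraries and 2.54, 2.59, 2.91 and 2.29 in the AngII + ldCil libraries. Every AngII + ldCil library lay below every AngII library, by a log2 difference of −0.80 (standard error 0.18, p = 0.000627, limma, exact permutation p = 0.0286).

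Sat1 encodes the rate-limiting enzyme of polyamine breakdown, and its values of 5.91, 6.24, 6.15 and 6.03 with AngII exceeded the 5.86, 5.81, 5.37 and 5.15 with AngII + ldCil, with no overlap. The log2 difference was −0.54 (standard error 0.15, p = 0.00292, limma, exact permutation p = 0.0286). Nupr1, a chromatin protein induced by cell stress, was at 4.57, 4.65, 4.51 and 4.77 with AngII and 4.46, 4.25, 3.997 and 3.64 with AngII + ldCil, again without overlap. Its log2 difference was −0.54 (standard error 0.16, p = 0.00482, limma, exact permutation p = 0.0286). Pdgfc, a growth factor for the platelet-derived growth factor receptor alpha of fibroblasts, was at 4.29, 4.72, 4.39 and 3.83 with AngII and 3.45, 3.55, 3.61 and 3.59 with AngII + ldCil. The AngII + ldCil libraries lay close together and below all AngII libraries, with a log2 difference of −0.76 (standard error 0.24, p = 0.00607, limma, exact permutation p = 0.0286). P2rx1, an ATP-gated cation channel, was separated as well, with a log2 difference of −0.69 (standard error 0.20) from a mean of 1.55. Crip1, a small LIM domain protein, differed by −0.60 (standard error 0.18), and Tnfrsf21, the death receptor DR6, by −0.505 (standard error 0.17), both without overlap.

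Among the genes higher with ldCil added, Glul and a pseudogene of it appeared together. Glul encodes glutamine synthetase, and its log2 RPKM was 7.21, 6.60, 6.72 and 7.97 with AngII and 7.86, 7.83, 8.08 and 8.69 with AngII + ldCil. The AngII library S8 lay inside the AngII + ldCil range while S5, S6 and S7 lay below it. The log2 difference was 0.99 (standard error 0.31, p = 0.00693, limma, exact permutation p = 0.0857), from an AngII mean of 7.12, and the control mean was 7.98. Glns-ps1, annotated as a processed pseudogene at chr11:19720355-19721472 (GRCm38), differed by 0.92 (standard error 0.27) without overlap. Reads of Glul and this copy may not be separable in counting, so the level of the copy is uncertain. The same holds for Hspd1-ps3, a processed pseudogene of the mitochondrial chaperonin gene at chr11:41498737-41500458. It differed by 0.68 (standard error 0.17), while Hspd1 itself differed by 0.21 (95% interval −0.079 to 0.51).

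Mmachc encodes a protein that processes vitamin B12 for use as a cofactor, and its values were 3.95, 4.01, 4.11 and 4.05 with AngII and 4.501, 4.51, 4.58 and 4.40 with AngII + ldCil. Both groups were tight and did not overlap, with a log2 difference of 0.47 (standard error 0.12, p = 0.00152, limma, exact permutation p = 0.0286). Spata13, an exchange factor that activates the small GTPases Rac and Cdc42, was at 4.26, 4.22, 4.58 and 4.55 with AngII and 4.91, 4.90, 4.93 and 5.74 with AngII + ldCil. S16 stood far above the other AngII + ldCil libraries, and the log2 difference was 0.71 (standard error 0.19). Frem2, a matrix protein of epithelial basement membranes at chr3:53513938-53657355, differed by 0.78 (standard error 0.21), also with S16 highest, at 6.74. Nceh1, which hydrolyses cholesterol esters, differed by 0.47 (standard error 0.14), the ETS transcription factor gene Elf4 by 0.43 (standard error 0.12), and Usp40, a deubiquitinating enzyme, by 0.34 (standard error 0.095). Libraries of both groups were separated for each of these 3 genes. Gpx1, the main cytosolic glutathione peroxidase, which removes hydrogen peroxide, was at 7.06, 7.04, 7.10 and 6.98 with AngII and 7.36, 7.28, 7.26 and 7.43 with AngII + ldCil. That is a small but separated log2 difference of 0.29 (standard error 0.087, p = 0.00495, limma, exact permutation p = 0.0286). D830005E20Rik, an antisense transcript at chr10:33222345-33256418, had the smallest p of the higher genes, with a log2 difference of 0.82 (standard error 0.20). Without the strand setting of the counting, reads of an antisense gene and its partner cannot be told apart.

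**Figure D1:**
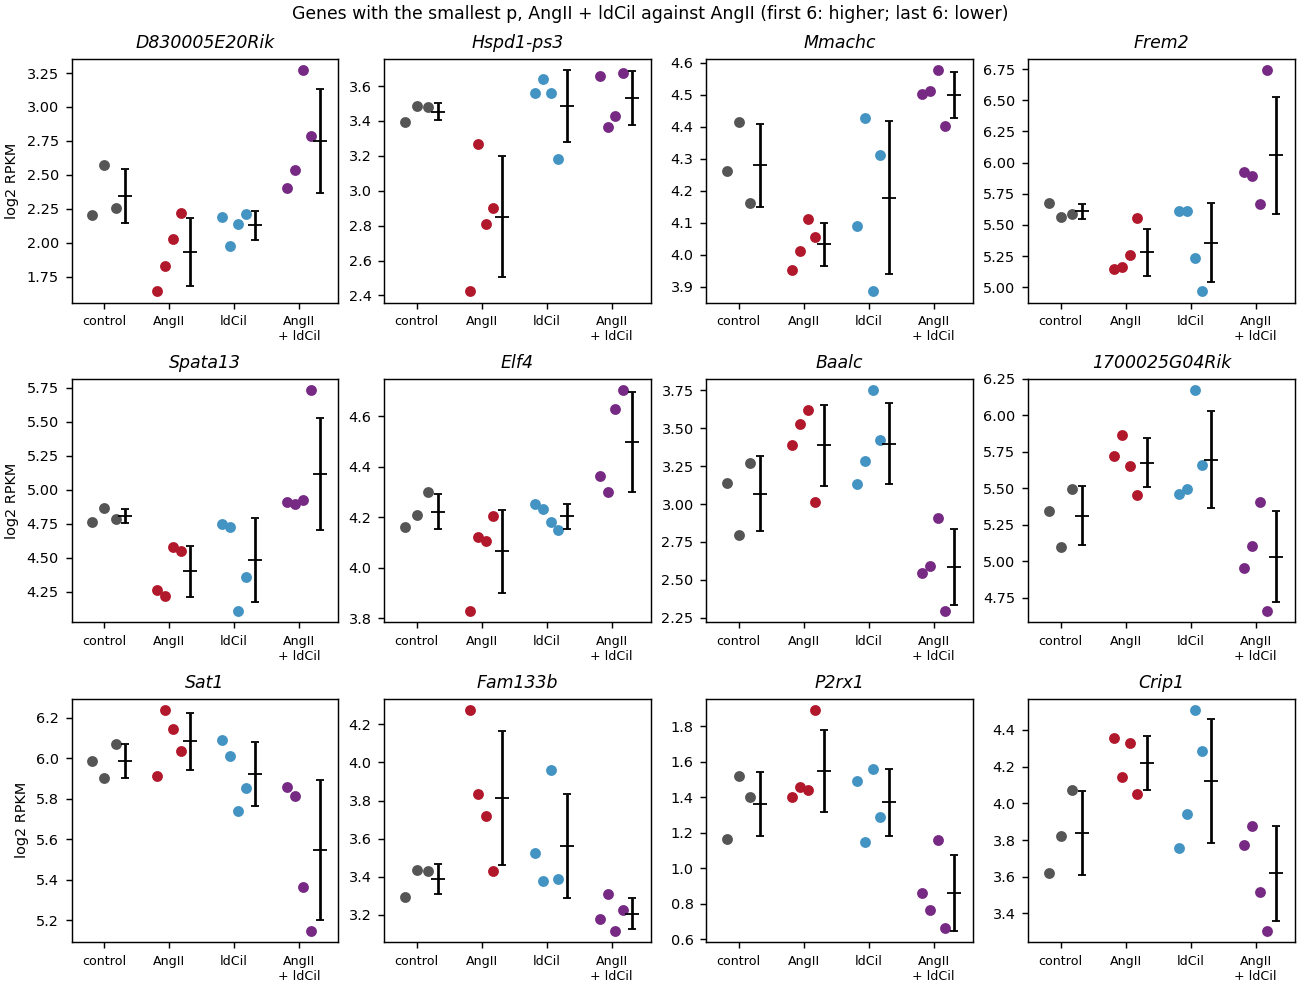
Log2 RPKM (y axis) of the 6 higher and 6 lower genes with the smallest unadjusted p, by treatment group (x axis). Each point is 1 library, with the mean and SD of the group beside the points. Mmachc in AngII + ldCil sits between 4.40 and 4.58 and in AngII between 3.95 and 4.11.

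The enzymes of glycolysis, which break glucose down to pyruvate and lactate, were mostly lower with ldCil added. Of the 20 genes tested, 18 were lower and 2 higher, with a median log2 difference of −0.24, where over all genes 52.4% were higher and the median was 0.011. At an unadjusted p under 0.05, 4 were lower and 1 higher, against 0.965% lower and 1.61% higher over all genes tested. Ldha, the lactate dehydrogenase subunit of muscle and hypoxic tissue, was at 9.49, 9.92, 9.82 and 9.43 with AngII and 9.28, 9.29, 9.39 and 8.93 with AngII + ldCil. All AngII + ldCil libraries lay below all AngII libraries, by −0.44 on the log2 scale (95% interval −0.77 to −0.12, p = 0.0109, limma, exact permutation p = 0.0286). Pkm, pyruvate kinase of muscle, was at 9.90, 9.88, 9.84 and 9.71 with AngII and 9.56, 9.53, 9.61 and 8.80 with AngII + ldCil, likewise separated, with a log2 difference of −0.46 (95% interval −0.80 to −0.12, p = 0.0116, limma, exact permutation p = 0.0286). Leaving out S16, which was lowest for both, moved Ldha to −0.34 and Pkm to −0.27.

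Pgk1, phosphoglycerate kinase, was at 8.86, 9.23, 9.14 and 8.90 with AngII and 8.71, 8.74, 8.90 and 8.37 with AngII + ldCil. S15 reached the level of S8 and lay above S5, so the groups touched, and the log2 difference was −0.35 (95% interval −0.66 to −0.044). Pfkl, the liver-type phosphofructokinase, was at 6.05, 6.54, 6.54 and 6.28 with AngII and 5.87, 5.66, 6.61 and 5.12 with AngII + ldCil, with S15 above all AngII libraries, and its log2 difference was −0.54 (95% interval −1.05 to −0.028). Pgam1, phosphoglycerate mutase, stood on the other side, at 6.20, 6.02, 5.96 and 6.35 with AngII and 6.53, 6.59, 6.28 and 7.10 with AngII + ldCil. Its log2 difference was 0.49 (95% interval 0.073 to 0.91), but it has near-identical copies in the genome that can share its reads, so its level is uncertain. The glucose transporters did not differ beyond their spread, with log2 differences of −0.074 (95% interval −0.57 to 0.42) for Slc2a1 and 0.10 (95% interval −0.66 to 0.87) for Slc2a4, the insulin-responsive one. Hk1 and Hk2, the hexokinases that start the pathway, were at −0.028 (95% interval −0.38 to 0.33) and −0.035 (95% interval −0.55 to 0.48).

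After subtracting from each gene its average over all 15 libraries (a centred value), the mean of the 20 glycolysis genes was high in S6, S7 and S15 (0.32, 0.28 and 0.33) and low in S5, S8, S13 and S14 (−0.21, −0.11, −0.14 and −0.14). S16 was lowest, at −0.51. The ranges of both groups overlapped. The median of the list was −0.50 without S5 and S15, and −0.10 without S16, and it kept its sign in 27 of 27 alternatives. S5 was the lowest AngII library and S15 the highest AngII + ldCil library for this list. Leaving both out therefore enlarges the difference by construction and is no separate evidence for it. Without AngII, ldCil differed from control by a median of 0.12 over the same genes.

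The letters before the start sites of these genes are shown because glycolytic genes are known targets of hypoxia-inducible factors, whose core binding letters are ACGTG and GCGTG. Each sequence is the 250 bases before a RefSeq start (GRCm38.p6), 5′ to 3′ on the strand of the gene, with matches to these letters on either strand (CACGT and CACGC on the other) in capitals. Neighbouring matches can overlap, as in CACGTG, which counts on both strands. Fam162a, a mitochondrial protein known to be induced by hypoxia, is shown beside the enzymes because it was among the lower genes, with a log2 difference of −0.54 (standard error 0.18). Its values were 6.27, 5.92, 5.74 and 5.79 with AngII and 5.38, 5.32, 5.87 and 4.998 with AngII + ldCil, with S15 inside the AngII range. Of the starts RefSeq lists for Ldha, the one with more matches is shown.
Ldha, chr7:46845554-46845803, plus strand: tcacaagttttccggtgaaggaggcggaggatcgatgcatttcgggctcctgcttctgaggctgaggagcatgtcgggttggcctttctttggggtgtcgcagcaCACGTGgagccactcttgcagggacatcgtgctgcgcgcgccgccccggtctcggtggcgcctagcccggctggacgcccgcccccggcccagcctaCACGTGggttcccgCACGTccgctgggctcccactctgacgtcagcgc
Pgk1, chrX:106186850-106187099, plus strand: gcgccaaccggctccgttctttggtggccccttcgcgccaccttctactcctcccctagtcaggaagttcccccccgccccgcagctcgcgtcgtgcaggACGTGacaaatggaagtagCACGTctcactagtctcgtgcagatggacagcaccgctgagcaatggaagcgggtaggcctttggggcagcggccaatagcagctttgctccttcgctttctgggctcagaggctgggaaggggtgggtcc
Fam162a, chr16:36071562-36071811, minus strand: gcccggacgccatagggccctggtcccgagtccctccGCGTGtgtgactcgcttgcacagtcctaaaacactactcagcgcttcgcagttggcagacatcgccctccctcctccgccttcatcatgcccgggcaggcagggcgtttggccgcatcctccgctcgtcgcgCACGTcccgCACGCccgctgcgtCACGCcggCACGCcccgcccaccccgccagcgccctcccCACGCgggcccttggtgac

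The Ldha window held 5 matches, that of Pgk1 2 and that of Fam162a 6. Windows examined but not shown held 2 matches or fewer. These were 0 and 1 for the starts of Pkm, 1 and 0 for Pdk1, and 0, 1 and 1 for Aldoa. Those of Eno1 held 1, 2 and 2, that of Tpi1 0 and the other Ldha start 1. The windows shown are therefore not typical of those examined. Of the 20 glycolysis genes, 19 had an entry in the RefSeq promoter table and 16 of these (84.2%) held at least 1 match before a listed start, against 11226 of all 27025 genes with an entry (41.5%) and 5921 of the 9474 genes tested that had one (62.5%). As 9474 is under 80% of the 12848 genes tested, the comparison with the genes tested is void, and the share over all genes includes genes that these cells do not express. A match describes letters in a window and says nothing of binding.

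Genes of insulin, PI3K and AKT signalling, which carry growth factor signals from the membrane to metabolism and growth, were mostly higher with ldCil added. Of 43 tested, 35 were higher and 8 lower, with a median log2 difference of 0.16, against 0.011 over all genes, and 5 higher and 0 lower genes had an unadjusted p under 0.05 (over all genes 1.61% and 0.965%). Irs2, an adaptor between the insulin receptor and PI3K, was at 3.24, 3.69, 3.64 and 4.13 with AngII and 4.27, 4.48, 3.88 and 4.70 with AngII + ldCil. S8 lay above S15, and the log2 difference was 0.65 (95% interval 0.23 to 1.07, p = 0.00496, limma, exact permutation p = 0.0571). Insr, the insulin receptor, was at 5.24, 5.02, 5.27 and 5.47 with AngII and 5.71, 5.66, 5.58 and 6.28 with AngII + ldCil without overlap, and its log2 difference was 0.56 (95% interval 0.16 to 0.95, p = 0.00869, limma, exact permutation p = 0.0286). Without S16, which was highest, it was 0.40.

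Downstream of the receptor, Gsk3b, a kinase that AKT switches off, was at 5.14, 5.59, 5.58 and 5.70 with AngII and 5.70, 5.71, 5.74 and 6.03 with AngII + ldCil, with S8 just below S13, and differed by 0.30 (95% interval 0.018 to 0.57). Its relative Gsk3a differed by 0.20 (95% interval 0.0017 to 0.39), and Sos1, the exchange factor that activates RAS, by 0.38 (95% interval 0.012 to 0.75). For Gsk3a and Sos1 S5 was the lowest library and S16 the highest. Without S5, Gsk3b was at 0.17, Gsk3a at 0.13 and Sos1 at 0.21, and without S16 Gsk3b was at 0.22 and Sos1 at 0.23, none of them at an unadjusted p under 0.05 (limma). The kinase genes Akt1 and Akt2 were close to 0, at 0.0085 (95% interval −0.26 to 0.28) and 0.018 (95% interval −0.17 to 0.20). Pik3ca, the catalytic subunit of PI3K, was at 0.11 (95% interval −0.15 to 0.37). Erbb2, a co-receptor for neuregulin, had the lowest value of the list, at −0.34 (95% interval −1.04 to 0.36). By library, the centred list mean was −0.32 in S5, between −0.064 and 0.050 in S6, S7 and S8, between 0.0018 and 0.069 in S13, S14 and S15, and 0.23 in S16. The list median was 0.0037 with library weights, and without AngII ldCil differed from control by a median of −0.017 over these genes.

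**Figure D2:**
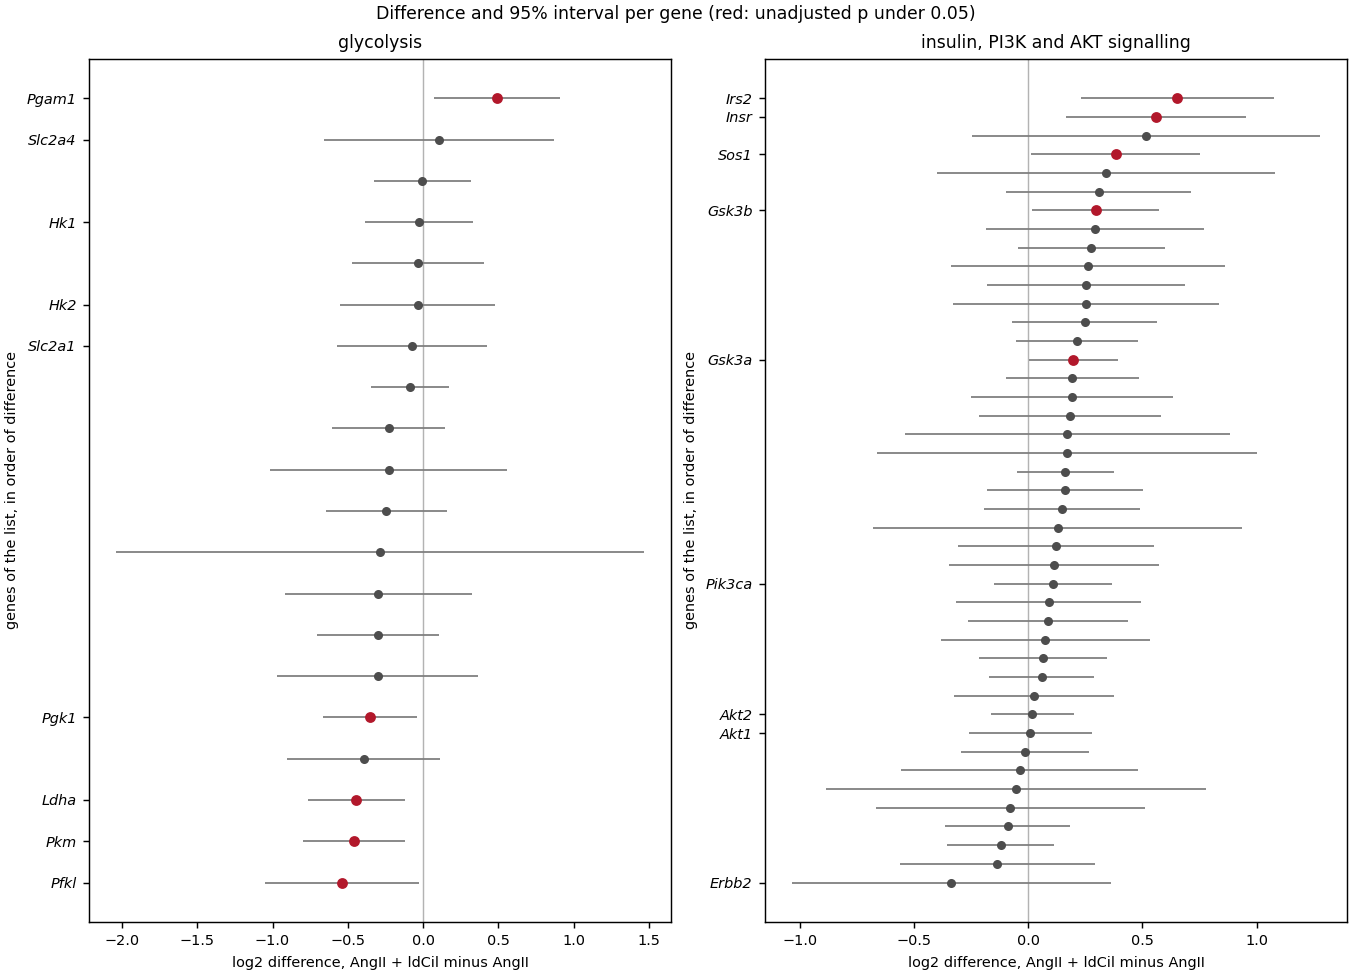
Log2 difference between AngII + ldCil and AngII (x axis) for each gene tested of the glycolysis list (left) and of the insulin, PI3K and AKT list (right), 1 gene per line on the y axis, with names for the genes described in the text. Points are the estimates, lines the 95% intervals from limma, and red points have an unadjusted p under 0.05. Most glycolysis genes sit left of 0 and most genes of the other list right of 0, and most intervals include 0.

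The genes of the integrins that cilengitide occupies showed no difference beyond the spread. Itgav, the alpha v subunit, was at 5.97, 5.94, 5.97 and 6.32 with AngII and 6.27, 6.16, 5.67 and 6.28 with AngII + ldCil. The groups overlapped, and the log2 difference was 0.043 (95% interval −0.31 to 0.40). Itgb3, its beta 3 partner, was at 2.67, 3.84, 3.43 and 2.29 with AngII and 2.93, 2.52, 3.42 and 2.89 with AngII + ldCil, with a wide spread among AngII libraries and a log2 difference of −0.11 (95% interval −0.84 to 0.61). Itgb5 differed by −0.15 (95% interval −0.52 to 0.23) and Itgb1 by −0.085 (95% interval −0.32 to 0.15). Itga5, the alpha subunit of the fibronectin receptor, was the RGD-binding integrin gene with the smallest p. Its values of 7.06, 7.58, 7.11 and 7.02 with AngII all exceeded those of 6.87, 6.72, 6.93 and 6.53 with AngII + ldCil. The log2 difference was −0.43 (95% interval −0.84 to −0.025, p = 0.0391, limma, exact permutation p = 0.0286), and without S6, the highest library, it was −0.30. Of the 9 RGD-binding integrin genes tested, 3 were higher and 6 lower, with a median of −0.11, which was −0.40 without S5 and S15 and −0.24 without S5.

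The matrix proteins that carry the RGD sequence were split, with 5 of 9 tested higher and a median of 0.077. Fn1, fibronectin, differed by 0.24 (95% interval −0.33 to 0.80), Tnc, tenascin C, by −0.65 (95% interval −1.54 to 0.24), and Spp1, osteopontin, by −0.011 (95% interval −1.57 to 1.54), with S16 at 3.51 and S13 at 7.86. Without S16 the Spp1 difference turned to 0.96. Of 31 genes of the adhesion complex inside the cell, 19 were higher, with a median of 0.065. Enah, which extends actin filaments, was the 1 gene of them at an unadjusted p under 0.05, with a log2 difference of 0.40 (95% interval 0.0015 to 0.79).

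The AngII receptor and its pathway were close to balanced. Agtr1a, the mouse AT1a receptor, was at 1.27, 1.64, 1.57 and 1.12 with AngII and 1.27, 1.40, 1.36 and 1.24 with AngII + ldCil, and differed by −0.087 (95% interval −0.57 to 0.40). Of 29 receptor and Gq signalling genes tested, 13 were higher and 16 lower, the median was −0.040, and 0 had an unadjusted p under 0.05. Immediate early genes and feedback genes of the RAS-ERK pathway had 13 of 32 higher and a median of −0.064. Rasa2, which switches RAS off, was −0.41 (95% interval −0.76 to −0.053) and Ier2, an immediate early gene, −0.36 (95% interval −0.69 to −0.030). These were the 2 genes of that list at an unadjusted p under 0.05 (over all genes 0.965% lower and 1.61% higher).

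Hypertrophy and foetal genes did not stand lower with ldCil added. Of 13 tested, 9 were higher, with a median of 0.091 and none at an unadjusted p under 0.05 (limma). Myh7, the beta myosin heavy chain of the foetal heart, was at 6.31, 6.96, 6.91 and 6.23 with AngII and 6.31, 6.15, 7.16 and 8.68 with AngII + ldCil. S13 and S14 lay near the lowest AngII libraries and S16 far above every other, and the log2 difference of 0.47 had a 95% interval of −0.42 to 1.36. Its direction turned without S16, to −0.063, and with library weights, to −0.52. The list median also turned, to −0.11 with the weights and to −0.16 without S5 and S15. Nppb, the B-type natriuretic peptide, was at 9.72, 9.17, 9.11 and 10.49 with AngII and 9.90, 9.99, 10.07 and 10.34 with AngII + ldCil, with S8 highest of all, and differed by 0.45 (95% interval −0.15 to 1.05). Nppa, the atrial natriuretic peptide, differed by 0.041 (95% interval −0.33 to 0.42) and Acta1, skeletal actin, by 0.37 (95% interval −0.997 to 1.73). Rcan1, a calcineurin target, was at −0.30 (95% interval −0.66 to 0.061).

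Sarcomere genes had 7 of 20 higher and a median of −0.078, and 0 at an unadjusted p under 0.05. Ttn, titin, differed by 0.56 (95% interval −0.20 to 1.32) and Tcap, which anchors it at the Z-disc, by −0.52 (95% interval −1.57 to 0.53). Of 25 genes of calcium handling and ion channels 10 were higher, with a median of −0.079. Trdn, triadin of the calcium release complex, was at −0.71 (95% interval −1.40 to −0.015), with S5 at 9.14 and S15 at 8.65 above the others of their groups.

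None of the mitochondrial genes of the lists for the respiratory chain, the TCA cycle and fatty acid oxidation was at an unadjusted p under 0.05 (limma). Of 36 complex I subunits, 28 were lower (median −0.075), of 25 subunits of complexes III and IV 20 (median −0.091), and of 16 ATP synthase subunits 11 (median −0.075). Fatty acid oxidation genes were lower in 19 of 25 (median −0.10). The complex I median turned to 0.049 and the ATP synthase median was −0.0069 without S5, and without S16 the median of complexes III and IV was −0.016 and that of fatty acid oxidation −0.022. Genes of pyruvate dehydrogenase and the TCA cycle were balanced, with 13 of 27 higher and a median of −0.0069. Of the 10 mitochondrially encoded genes tested, 5 were higher. Among these, mt-Co1 read 12.4 in every AngII library, with an SD of 0, and such repeated values could hide a shift. Pdha1, the pyruvate dehydrogenase subunit, differed by 0.21 (95% interval −0.21 to 0.63) and Sdha, of succinate dehydrogenase, by −0.14 (95% interval −0.59 to 0.31). Pdk1, the kinase that switches pyruvate dehydrogenase off, was at 4.98, 6.65, 6.49 and 6.03 with AngII and 5.08, 5.05, 6.67 and 4.59 with AngII + ldCil, high in S6, S7, S8 and S15 and low in the others. Its log2 difference was −0.69 (95% interval −1.64 to 0.26).

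Among stress programmes, genes of the PERK-ATF4 response, which restores amino acids when translation is blocked, had 22 of 32 higher and a median of 0.099. Nupr1, described above, was the 1 lower member at an unadjusted p under 0.05. Trib3, a pseudokinase of this pathway, was at 0.52 (95% interval −0.25 to 1.28), and Asns, asparagine synthetase, at 0.21 (95% interval −0.12 to 0.53). Chaperones were balanced, with 17 of 32 higher and a median of 0.0031. Antioxidant and metallothionein genes had 22 of 30 lower and a median of −0.12, with Gpx1 the 1 member at an unadjusted p under 0.05, on the higher side. Nqo1, a quinone reductase under NRF2, was at −0.45 (95% interval −1.11 to 0.20). Cytosolic ribosomal protein genes were higher in 49 of 78, with a median of 0.031 that was −0.095 without S6, −0.076 without S16 and 0.47 without S5 and S15. Cholesterol synthesis genes were higher in 16 of 23, with a median of 0.091. Hsd17b7, which makes zymosterol, was the 1 cholesterol gene at an unadjusted p under 0.05, with a log2 difference of 0.58 (95% interval 0.11 to 1.04).

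In growth and remodelling programmes, targets and partners of YAP and TEAD, which respond to tension, were higher in 16 of 22, against 52.4% of all genes, with a median of 0.10 that was 0.024 without S16 and 0.052 without S5. At an unadjusted p under 0.05 there were 3 higher members (over all genes 1.61%). Tead1, the main TEAD factor of the heart, was at 6.18, 7.19, 7.24 and 7.46 with AngII and 7.49, 7.44, 7.28 and 8.07 with AngII + ldCil. S5 was lowest and S16 highest, and the log2 difference was 0.55 (95% interval 0.067 to 1.04), or 0.28 without S5 and 0.39 without S16. Crim1 was at 0.40 (95% interval 0.041 to 0.76) and Ptpn14, which holds YAP in the cytoplasm, at 0.44 (95% interval 0.00099 to 0.87), and without S16 they were at 0.26 and 0.21. Cell cycle genes were higher in 34 of 37, with a median of 0.18, yet 0 had an unadjusted p under 0.05. Ccnd2, cyclin D2, was at 0.57 (95% interval −0.043 to 1.18) and Mcm7, a helicase of DNA replication, at 0.44 (95% interval −0.020 to 0.89). The centred mean of the cell cycle list was 0.51 in S8 and −0.20 to −0.32 in the other AngII libraries, and −0.069 to 0.23 in AngII + ldCil, so the ranges overlapped through S8. The list median was lowest, at 0.067, without S7 and highest, at 0.56, with library weights. Notch genes were higher in 11 of 17 (median 0.085), with Notch2 at 0.33 (95% interval 0.017 to 0.64). Clock genes were higher in 13 of 19 (median 0.12), and TGF-beta and BMP genes were split, with 17 of 34 higher. The clock median turned in 2 removals of 1 library and with library weights, to −0.18.

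Collagens and matrix genes had 10 of 32 higher and a median of −0.14, and matrix metalloproteinases and their inhibitors 6 of 12 and a median of 0.0094. The collagen median turned in 2 removals of 1 library and with library weights, to 0.12. The centred mean of the collagen list was 0.56 in S8 and −0.54 in S16. Angiogenic factors and receptors had 13 of 22 higher and a median of 0.042. Vegfc, a growth factor for lymphatic vessels, was at −0.62 (95% interval −1.26 to 0.027), with S5 highest at 3.89. Kdr, the receptor VEGFR2 of endothelial cells, was at −0.78, 1.28, 0.43 and 1.13 with AngII and 1.85, 1.18, 1.39 and 1.55 with AngII + ldCil. S5 was far below the other libraries, and the log2 difference of 0.98 (95% interval 0.070 to 1.88) became 0.55 without it. Endothelial markers, Kdr included, were higher in 10 of 12, with a median of 0.48. Cdh5, the endothelial cadherin, was at 2.30, 1.70, 1.06 and 1.495 with AngII and 3.73, 2.31, 1.65 and 1.504 with AngII + ldCil, and S13 alone stood well above the rest, with a log2 difference of 0.66 (95% interval −0.26 to 1.57). The centred mean of the endothelial markers was 0.92 in S13, 0.25 in S14 and −0.085 and 0.065 in S15 and S16, against −0.42 to 0.29 in AngII, and the list median was 0.090 when genes averaging under 2 were left out.

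Macrophage and leucocyte markers were lower in 13 of 13, with a median of −0.32 and 0 at an unadjusted p under 0.05. Their centred mean ranged from −0.42 to 1.09 with AngII and from −1.44 to 0.60 with AngII + ldCil. S5 was at the top and S16 at the bottom, and the median turned to 0.21 without S16 and to 0.66 with library weights. Cd14 was at 5.22, 1.88, 2.03 and 0.39 with AngII and 1.82, 1.22, 0.86 and 0.89 with AngII + ldCil, with S5 far above all others. Fibroblast markers were lower in 9 of 11 (median −0.071), from −0.34 to 0.53 with AngII and from −1.22 (S16) to 0.41 with AngII + ldCil. Col3a1, a fibrillar collagen, was at 5.87 in S16 and between 9.11 and 9.54 in S13, S14 and S15, and without S16 the list median was 0.17. Smooth muscle markers were higher in 4 of 10 (median −0.049), epicardial markers in 3 of 9 (median −0.39), the 3 neuronal and Schwann cell markers tested in 3 (median 0.13) and cardiomyocyte markers in 6 of 16 (median −0.080). None of 8 erythroid markers was among the genes tested. The part of these cell types in the other results was not tested.

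Interferon response genes were lower in 31 of 34, with a median of −0.51, although none had an unadjusted p under 0.05 (limma). Their centred mean was 1.89 in S5 and −1.62, −1.53 and −0.76 in S6, S7 and S8, while S13, S14, S15 and S16 were at −0.40, −0.57, −1.61 and −1.59. Without S5 the list median was 0.31, on the other side of 0. Oas2, an antiviral enzyme, was at 1.97, −0.71, −1.29 and −0.74 with AngII and −1.502, −1.23, −2.24 and −1.70 with AngII + ldCil, and its log2 difference of −1.47 had a 95% interval of −3.56 to 0.61. With library weights the list median was 0.93. Chemokines and cytokines had 22 of 27 lower and a median of −0.24, with Il1b at 5.75 in S5 and between −4.06 and −1.005 in the other 7 libraries. Without S5 the median of this list was 0.14.

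**Figure D3:**
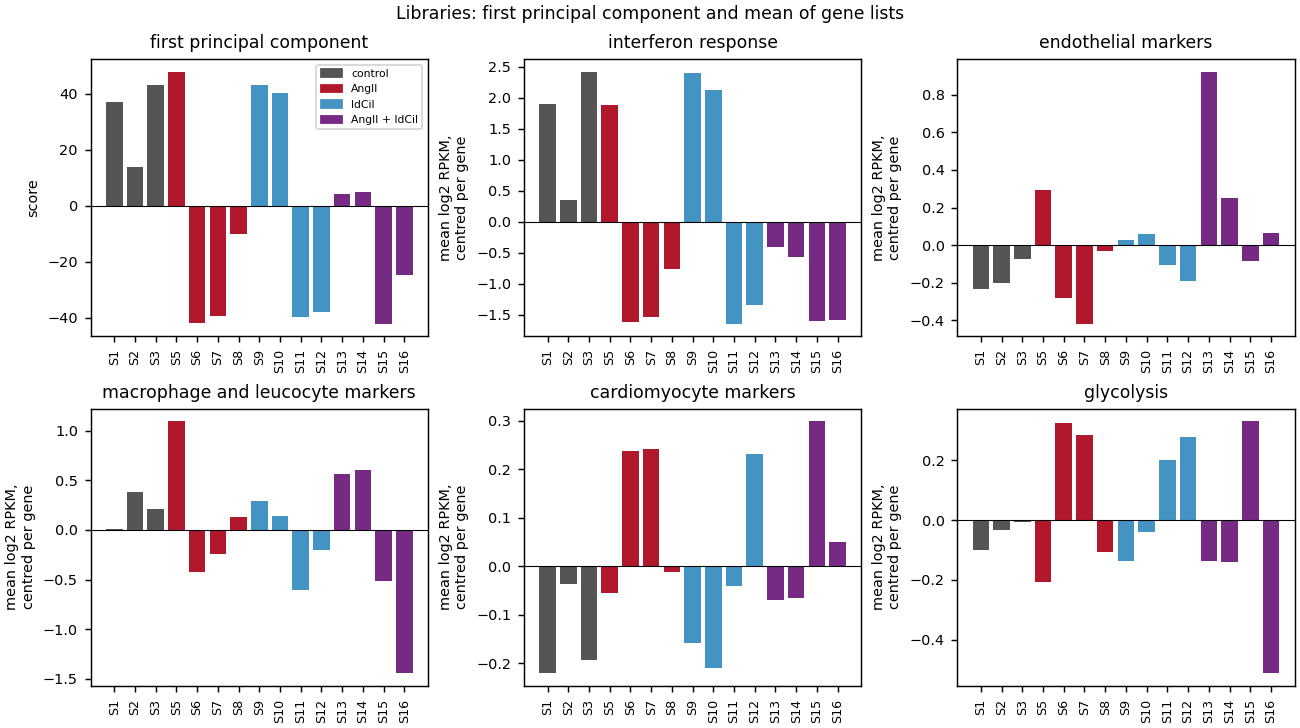
Score on the first principal component and centred mean log2 RPKM of 5 gene lists (y axes) in each of the 15 libraries (x axis), coloured by treatment. Bars run from 0, which for the lists is the average of each gene over the libraries. For interferon genes S5, at 1.89, stands near the control libraries S1 and S3, and S16 is lowest for macrophage markers, at −1.44, and for glycolysis, at −0.51.

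Of the genes that the study's text names for these cells, Lppos, Rasa4, Otub2 and Nlgn2 were chosen on these libraries, so their direction is not independent evidence. Lppos, a long intergenic RNA, was at 2.81, 3.04, 2.87 and 2.71 with AngII and 2.38, 2.56, 3.05 and 1.72 with AngII + ldCil, with S15 above all AngII libraries and a log2 difference of −0.43 (95% interval −0.97 to 0.11). Rasa4, which switches RAS off, was at 3.09, 3.68, 3.52 and 3.67 with AngII and 3.20, 2.92, 3.13 and 3.40 with AngII + ldCil, overlapping at S5, and differed by −0.33 (95% interval −0.72 to 0.061). Otub2, a deubiquitinating enzyme, differed by 0.28 (95% interval −0.14 to 0.69) and Nlgn2, neuroligin 2, by 0.22 (95% interval −0.27 to 0.70). AngII against control, which shares the AngII libraries, differed by 0.90 for Lppos, 0.73 for Rasa4, −0.73 for Otub2 and −0.75 for Nlgn2, the opposite sign for each of the 4. Of 10 tested genes that the text names as higher in ldCil-treated endothelial cells, 4 were higher here and the median was −0.17. Socs2 was at −0.42 (95% interval −1.04 to 0.19) and Mt2 at −0.503 (95% interval −1.44 to 0.43). The median turned to 0.17 without S16, where the centred mean of these genes was −0.98. In ldCil against control, 7 of them were higher, with a median of 0.19. The endothelial cells are another cell type, and the study describes no AngII for them.

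The effect of ldCil without AngII was measured in other libraries, ldCil against control, which share none with this comparison. Of the 43 genes at an unadjusted p under 0.01, 38 had the opposite sign in ldCil against control and 5 the same sign, and over all genes 54.7% had the opposite sign. Across the 12848 genes, which are not independent replicates, Pearson's r between both differences was −0.13 and Spearman's rho −0.14. Sprr1a differed by −1.76 with AngII and by 1.05 without, Glul by 0.99 and −0.51, Baalc by −0.80 and 0.33 and Spata13 by 0.71 and −0.32. On the first principal component the ldCil libraries S9 and S10 scored 43.24 and 40.34, but S11 and S12 −39.59 and −38.03. All control scores were positive. Glul was at 7.99 and 7.94 in S9 and S10 (control mean 7.98) and 7.13 and 6.81 in S11 and S12. Sprr1a was at 10.24 in S11 and at 7.81 to 8.74 in the other ldCil libraries. Spata13 was lower in every ldCil library than in any control. The part of this split in the opposite signs was not tested. The interaction, the ldCil difference with AngII minus that without, passed an adjusted p of 0.05 for 0 genes (smallest 0.958, limma). An unadjusted interaction p under 0.01 was found for 75 genes (0.584%) and under 0.05 for 496. Both counts were below those expected with no interaction in any gene. For 39 of the 43 genes the unadjusted interaction p was under 0.05, but they had been picked on 1 of the 2 differences it contains. The other difference contains the split ldCil libraries. Baalc had the smallest interaction p, with an interaction of −1.13 (standard error 0.27).

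Ifrd1, a transcriptional co-regulator, and Decr2, which acts in fatty acid breakdown in peroxisomes, were also among the 10 genes with the smallest interaction p. Ifrd1 had means of 4.99 in control, 5.67 with ldCil, 5.74 with AngII and 5.15 with both. The means with either agent alone exceeded those of control and of both together, and the interaction was −1.26 (standard error 0.34). Decr2 had means of 3.75, 3.31, 3.05 and 3.57 in the same order, with the mirrored pattern and an interaction of 0.96 (standard error 0.26). The AngII libraries enter both the interaction and the difference between AngII + ldCil and AngII, so neither value backs the other.

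The medians of 22 of the 40 gene lists with a tested member changed sign when 1 library was left out, and those of 16 kept it in every alternative, glycolysis, insulin signalling, cell cycle and endothelial markers among them. Over the glycolysis list the median was −0.24 with AngII and 0.12 without, and over cell cycle genes 0.18 and −0.081. For the ribosomal proteins it was 0.031 and −0.26, and for cholesterol synthesis 0.091 and −0.26. The ldCil libraries were split in these lists too. The centred mean of glycolysis was −0.137 and −0.0407 in S9 and S10 but 0.202 and 0.2765 in S11 and S12. That of the cell cycle was 0.2005 and 0.0953 in S9 and S10 but −0.268 and −0.277 in S11 and S12. Ribosomal protein and cholesterol means were also positive in S9 and S10 and negative in S11 and S12. Interferon genes had medians of −0.51 and −1.21, and the first changed sign without S5, as given above. Without AngII their centred mean was 2.40 and 2.13 in the ldCil libraries S9 and S10, but −1.65 and −1.35 in S11 and S12. The control libraries S1, S2 and S3 were at 1.90, 0.34 and 2.42, so the second median did not reflect all ldCil libraries.

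**Figure D4:**
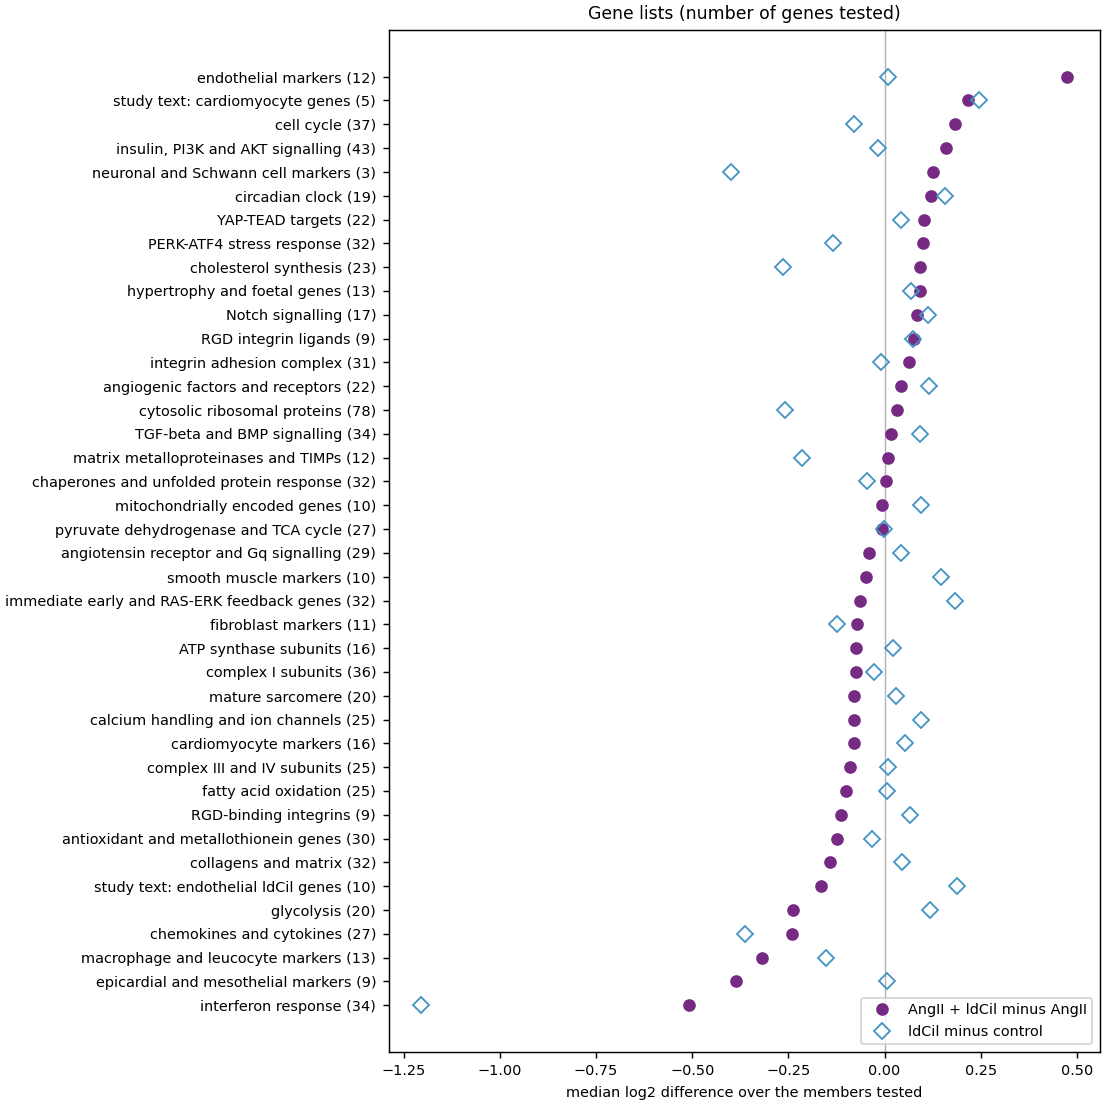
Median log2 difference over the members tested (x axis) for each of the 40 gene lists with a tested member (y axis, number of genes tested in brackets), for AngII + ldCil minus AngII (filled circles) and ldCil minus control (open diamonds). Endothelial markers are highest with AngII, at 0.48, and interferon genes lowest in both, at −0.51 and −1.21.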

How the data were processed

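Poly(A)-captured RNA of cultured neonatal mouse cardiomyocytes was sequenced in 15 libraries. Per the labels and the study's methods, the authors aligned reads with HISAT2 to GRCm38, counted them per gene with HTSeq and deposited conditional quantile normalised log2 RPKM values. The strand setting and tool versions were not given in the sources used here. Quantile steps make the distributions of libraries alike, so a shift shared by most genes would not be seen. The most abundant genes repeated the same values across libraries, such as 12.4 for mt-Co1 and 11.73 for Actc1. A shift in such genes could be hidden. No counts were used, so the depth is unknown and no counting interval is given. The table also holds 8 unnamed columns with fragments of gene descriptions, which were not used.

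Gene identifiers were matched to GENCODE M21 (14329 of 14337, 12695 with the same version). The 12848 genes averaging 0 or more in log2 RPKM were fitted with limma 3.58.1 in R 4.3.3, with 4 treatment groups, a trended moderation and Benjamini-Hochberg adjustment. In the sources used here the study's own model for these contrasts was not given. Each fold change is a difference of mean log2 RPKM, and 95% intervals come from the moderated standard error. Single genes were also tested with an exact permutation test, 2-sided, over the 8 libraries. Replicates of a group were numbered in accession order, which pairs nothing.

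Named genes were the 12 smallest p in each direction, the 5 largest differences in each direction among those at an unadjusted p under 0.01, the 5 widest gaps between non-overlapping groups, up to 4 members per gene list by p, Itgav, Itgb3, Itgb5, Itgb1, Itga5 and Agtr1a, the genes named in the study's text, and the 5 smallest interaction p in each direction. Any other list member named in the report was chosen after its values were seen. The members and the 41 gene lists, of which 40 had a gene tested, were chosen with earlier results of these data known. A few list members are not reported here by name but enter the counts and medians of their lists. Lists are described by counts and medians and were not tested. Promoter letters come from the RefSeq table for GRCm38.p6. Alternatives were no filter, a filter at 2, RPKM plus 0.1 or plus 1 before the log, quantile normalisation, median centring, no trend, a fit without the control and ldCil libraries, robust moderation, library weights, the first principal component as a covariate, each library left out, and S5 and S15 left out together, the last chosen after seeing the data.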

Additional observations from a re-analysis of the deposited data

Results flagged for a closer look

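A library far from the other 3 of its group by Dixon's test was found in 6 of 82 groups (41 named genes in AngII and in AngII + ldCil), and chance flags about 1 group in 20. Spata13, an exchange factor for Rac and Cdc42, was at 5.74 in the AngII + ldCil library S16. In AngII, Nceh1 was at 5.37 in S7, Itga5 at 7.58 in S6, and P2rx1, Il17d and Itgav at 1.90, 1.05 and 6.32 in S8. For Nceh1, P2rx1, Il17d and Itga5 the groups did not overlap even with these libraries, and the difference of Itga5 was −0.30 without S6.

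For Spata13, Usp40 and Nupr1 the libraries with ldCil lay without overlap on one side of those without it in the presence of AngII, and without overlap on the other side in its absence. These genes had been picked for a small p, and Spata13 and Usp40 also for a small interaction p. This opposite separation was therefore partly selected for, and its share over all genes tested was not counted. The interaction was 1.03 for Spata13, 0.507 for Usp40 and −0.796 for Nupr1 (log2), and none passed an adjusted p of 0.05 (smallest over all genes 0.958, limma).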

How the results depend on the processing

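No gene passed an adjusted p of 0.05 in any alternative but library weights, which gave 4048 genes. The 43 genes at an unadjusted p under 0.01 kept their direction in the 27 alternatives, save that 39 were tested with a filter at 2. An unadjusted p under 0.05 was kept by 42 of them when only the AngII and AngII + ldCil libraries were fitted and by 41 without S5 and S15, a setting chosen after seeing the data. In the other alternatives each tested gene kept it. The number at an unadjusted p under 0.01 (30 higher, 13 lower, 75 for the interaction) was 9 and 8 with only these libraries fitted, 1819, 1650 and 2482 with library weights, 64, 43 and 140 with the first principal component as a covariate, and 150, 91 and 427 without S5 and S15. With each library left out in turn it ranged from 10 to 110, from 4 to 50 and from 34 to 173. Genes whose libraries did not overlap (124 higher, 75 lower) ranged from 124 to 509 and from 75 to 321 with 1 library left out and were 1174 and 896 without S5 and S15. Fewer libraries separate more easily by construction. S5 and S15 were also picked because their scores cut across the groups, so leaving them out draws the groups apart. The cause of the other shifts was not tested. With library weights the difference turned to −0.52 for Myh7, 0.94 for Csf2rb, 1.98 for Ccl7, −0.67 for Slc30a1, 0.66 for Ctss and 1.05 for Spp1, and Spp1 ranged from −0.49 without S13 to 0.96 without S16. The list medians turned for 22 of 40 lists with 1 library left out, for 10 with library weights and for 7 without S5 and S15. The depth is unknown, so its limit on low genes could not be set. No paired analysis was possible because the labels carry no replicate numbers that link libraries of different groups.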
